A study of Mus musculus with 4 samples.

Results

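Interferon-stimulated effector genes are the genes that cells switch on when they sense interferon, and their products restrict viruses and other intracellular pathogens. A list of 42 of them was followed by RNA-seq in 4T1 cells, a widely used line from a mouse mammary tumour, with 4 libraries in all. All 42 symbols were found among the 24411 genes of each deposited table, and each reached a TPM (a transcript level scaled to transcript length and to the library's total) of at least 1 in some library. The members closest to that limit were Trim30a, with a highest value of 4.71 TPM, and Oas2, with 7.65 TPM, and no member fell outside it.

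The series holds 2 control libraries, control 1 and control 2, and 2 libraries labelled CD95ko, in which Fas, the gene of the death receptor CD95, was to be disrupted. All are in the same line, and the labels give the genotypes as control and CD95ko. Per the labels' protocols, 4T1 cells were first made to express Cas9 from a lentivirus under blasticidin selection. Guide RNAs to delete exon 9 of that gene were then transfected, clones were grown from sorted single cells, and PCR on genomic DNA was used to find deletions. The protocols list RNA from a control, from the Cas9 line and from 2 clones, FAS54 and FAS69, so each library labelled CD95ko stands for a single clone. Titles leave unsaid which of the controls is the Cas9 line. The name of the deposited table of control 2 points to that line, but no group was taken from such a name. No interferon or other stimulus is mentioned for any library. Nothing says that libraries of a group were cultured as replicates, so p-values measure only the spread between these libraries, and in bulk RNA fewer cells of a type and less RNA per cell cannot be told apart.

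Type I interferons bind the receptor chains IFNAR1 and IFNAR2, whose kinases JAK1 and TYK2 activate transcription factors of the STAT family. These join IRF9 and bind the interferon-stimulated response element (ISRE) in the promoters of the effector genes. Interferon gamma acts through its own receptor, and many GTPases and antigen-processing genes respond to both. Carcinoma cells in culture can hold a low steady level of these transcripts without added interferon.

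The ISRE core was looked for in the promoters. The members were chosen as interferon-stimulated, so their share with the core is not independent of that choice. RefSeq windows (GRCm38.p6) from 250 bases before to 50 bases after the transcription start were matched by symbol for 33 of the 42 members. These members had 42 windows in all, and in 34 the bases after the start occurred in a GENCODE M21 transcript of the gene. The core was taken as GAAA, any 2 bases, then GAAA (TTTC, 2 bases and TTTC when read on the other strand). It occurred in the windows of 14 of these 33 members (42.4%) and of 1079 of the 27025 genes with a window (3.99%). A match is a description of letters and was not tested for binding. The runs shown belong to members whose values are described next. They are written 5′ to 3′ along the gene's own strand with 10 bases on each side, and capitals mark the core, which holds several overlapping matches where the run of capitals is longer.
Isg15: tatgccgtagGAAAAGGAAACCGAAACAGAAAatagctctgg
Ifit1: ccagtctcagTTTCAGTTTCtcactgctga
Ifit3: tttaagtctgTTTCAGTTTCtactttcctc
Oas1a: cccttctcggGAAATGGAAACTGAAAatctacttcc
Gbp2: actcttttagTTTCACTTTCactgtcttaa
Irgm1: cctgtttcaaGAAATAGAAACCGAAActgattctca
Bst2: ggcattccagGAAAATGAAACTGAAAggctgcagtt
Rsad2: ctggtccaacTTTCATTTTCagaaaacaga
Psme1: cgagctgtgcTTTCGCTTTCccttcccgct

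The Isg15 run lies at chr4:156200865-156200906 on the reverse strand, and its 3 overlapping cores begin 78 bases before the transcription start. The Ifit1 run is at chr19:34640794-34640823 (forward strand, core beginning 85 bases before the start) and the Ifit3 run at chr19:34583397-34583426 (forward strand, 122 bases before). Ifit1 and Ifit3 each had a further core upstream of the run shown. The Oas1a run is at chr5:120907520-120907555 on the reverse strand, beginning 20 bases before the start. The starts used for Ifit3 (34583529) and Oas1a (120907525) lie inside the RefSeq spans of these genes. The Ifit3 run therefore lies within the gene's span, chr19:34583119-34588982, and most of the Oas1a core within chr5:120896256-120907544. Gbp2 has its run at chr3:142620594-142620623 on the forward strand, 59 bases before the start, and Irgm1 at chr11:48871425-48871460 on the reverse strand, 30 bases before. The Bst2 run is at chr8:71537577-71537612 and the Rsad2 run at chr12:26456553-26456582, both on the reverse strand, 130 and 120 bases before the start. In Psme1, at chr14:55578493-55578522 on the forward strand, the core begins 9 bases after the start and so lies within the transcribed part. The other members with a core were Gbp3, Ifitm3, Igtp, Oas3 and Trim30a. The RefSeq table used here gave no window for Usp18, Oas2, Mx2, Iigp1, Rtp4, Parp9, Parp14, Ifi27 and Tor3a.

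Members also sit beside each other in the genome. In GRCm38.p6, 19 of the 42 lie in 8 groups of members less than 300 kb apart. Ifit2, Ifit3 and Ifit1 share chr19:34550550-34650009, Oas2, Oas3 and Oas1a share chr5:120730333-120907544, and Parp14, Dtx3l and Parp9 share chr16:35831892-35972621. The pairs are Rsad2 with Cmpk2 on chromosome 12, Psme1 with Psme2 on chromosome 14, Gbp3 with Gbp2 on chromosome 3, Oasl2 with Oasl1 on chromosome 5, and Irgm1 with Ifi47 on chromosome 11.

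Fas, the targeted gene, stood at 49.4 and 39.2 TPM in control 1 and control 2, at 15.8 TPM in the library labelled CD95ko 1 and at 49.5 TPM in the library labelled CD95ko 2. A gene-level TPM does not separate the targeted exon from the others, so the second value checks nothing about the deletion, and groups are named here as labelled. Of the 10 mammary epithelial markers, all but Krt5 were above 0 in each library. Their summed level was 4891 and 4544 TPM in the controls and 6918 and 10493 TPM in the libraries labelled CD95ko. Krt18 was its largest part, at 1707, 1753, 2412 and 5160 TPM in the same order. Krt14, Cldn3 and Esrp1 were below both controls in the library labelled CD95ko 1, and Cldn3 also in the library labelled CD95ko 2. Of 11 leukocyte markers, 8 (Ptprc, Cd3e, Cd79a, Adgre1, Itgam, Itgax, Nkg7 and Lyz2) were listed at 0 in every library. The list summed to 57.8 and 46.2 TPM in the controls and 53.0 and 253 TPM in the libraries labelled CD95ko, all of it from Cd14, Csf1r and Cd68. Fibroblast markers summed to between 0.97 and 4.52 TPM, and endothelial markers to at most 0.28 TPM. Depth is unknown from TPM.

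The highest library for the effector genes was control 1 and the lowest control 2. Summed over the 42 members, the level was 4963 TPM in control 1, 2235 TPM in control 2, 2882 TPM in the library labelled CD95ko 1 and 4157 TPM in the library labelled CD95ko 2. The median member stood at 55.8, 10.5, 24.7 and 25.1 TPM in the same order. Control 1 held the highest value for 34 members and the lowest for 0, and control 2 held the lowest for 27 members and the highest for 0. The genes that entered the test (a TPM of 1 or more in 2 or more libraries) numbered 11167. Among them, control 1 was highest for 29.2% and lowest for 9.92%, and control 2 was lowest for 45.2% and highest for 11.0%.

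**Figure D1:**
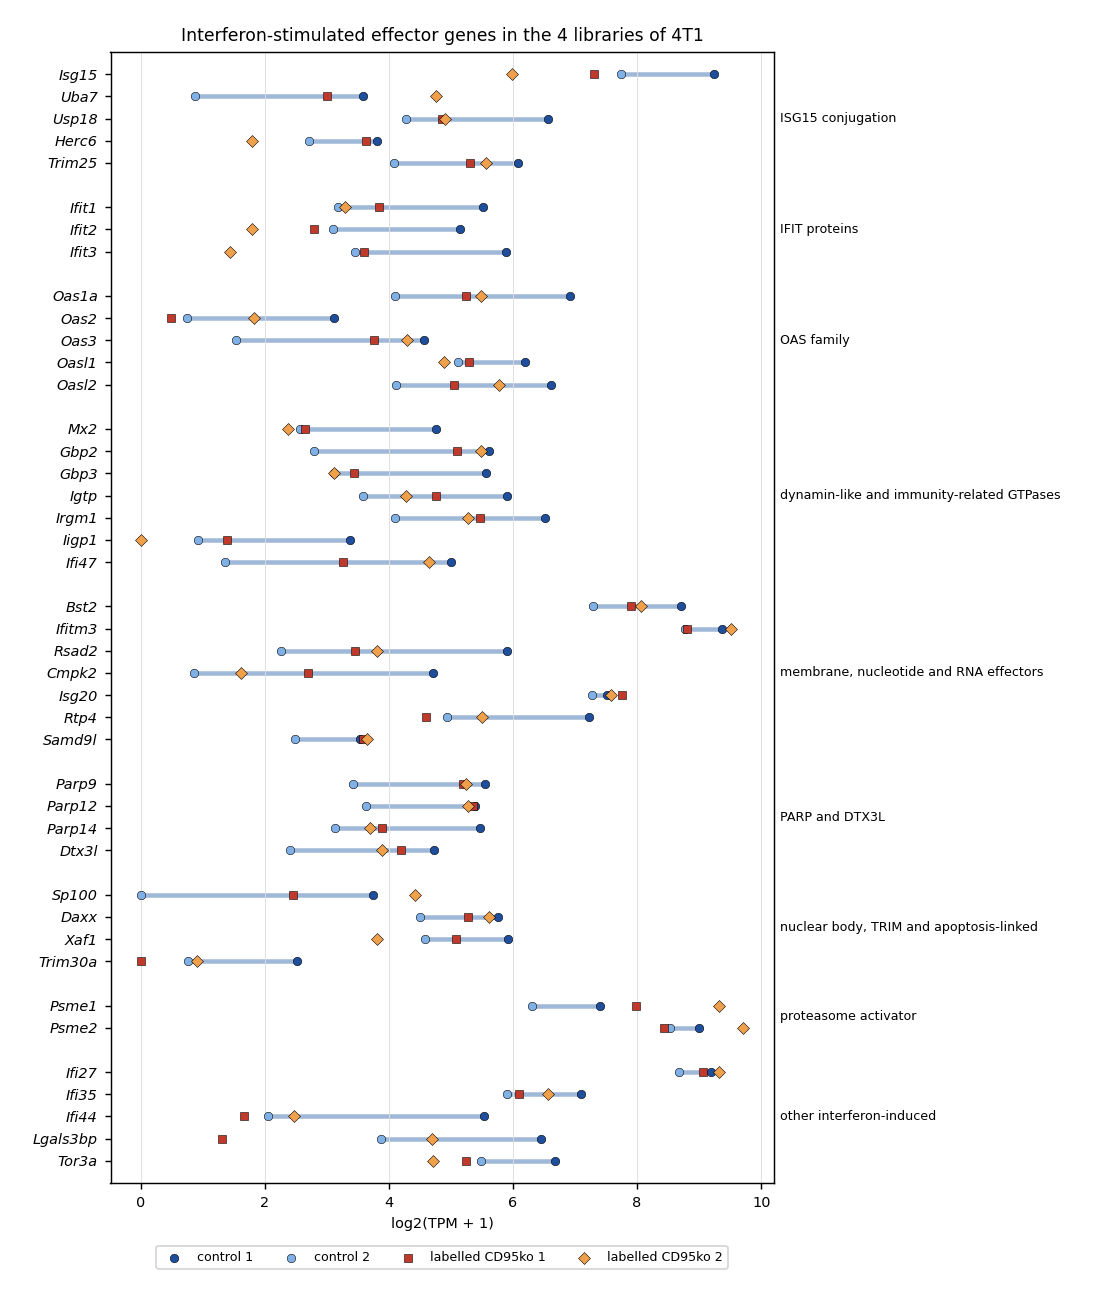
Levels of the 42 members on a log2(TPM + 1) axis, by role, with a symbol for each library and a bar joining the 2 controls. Control 1 lies to the right of control 2 in all 42 rows, and the library labelled CD95ko 1 falls on the bar in 30 rows and the library labelled CD95ko 2 in 25.

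On the log2(TPM + 1) scale, on which all differences here are given, all 42 members were lower in control 2 than in control 1, where 75.9% of all tested genes were. The median difference of the members was -2.28, and that of the tested genes was -0.35. TPM sums to the same total in every library, so the latter is a shift in shares, and a general fall could not be seen. The members' median less that of the tested genes was -1.92. More than 2-fold lower were 38 of the 42 members, against 12.6% of the tested genes, and 0 were more than 2-fold higher, against 1.84%. When each library was centred on its median, 41 members were lower, with Isg20 the exception, and 29 were more than 2-fold lower. The median difference of the members was then -1.85, beside 0.08 for the tested genes, whose shares were not worked out after centring. Each control is a single library, so this difference has no replicate error and no test.

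The libraries labelled CD95ko were then compared with the controls. Each of the former is a single sorted clone, while the protocols list the controls as a control and the Cas9 line. An effect of losing CD95 therefore cannot be told apart from one of cloning or handling. Of the 42 members, 41 passed the filter on low values and Trim30a did not. None of the 41 passed an adjusted p of 0.05 in limma (smallest adjusted p = 0.177), where 0.0537% of all tested genes did (0.0358% lower and 0.0179% higher). At an unadjusted p under 0.05 there were 5 members, 4 lower and 1 higher, against 14.9% of the tested genes (5.68% lower and 9.25% higher). The median member differed by -0.20 between the group means, beside 0.13 for the tested genes.

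The direction depended on the control. Against control 1, the library labelled CD95ko 1 had a median member difference of -1.22. There, 39 of 42 members were lower (49.4% of tested genes), 24 more than 2-fold lower (9.01%) and 0 more than 2-fold higher (8.27%). The library labelled CD95ko 2 had a median of -1.29 against control 1. In it 34 members were lower (54.1% of tested genes), 23 more than 2-fold lower (17.5%) and 2, Uba7 and Psme1, more than 2-fold higher (13%). Against control 2 the medians were 0.63 and 0.75, beside 0.36 and 0.26 for the tested genes. In the library labelled CD95ko 1, 9 members were lower than in control 2 (31.3% of tested genes) and 33 higher, with 16 more than 2-fold higher (21.6%) and 1, Lgals3bp, more than 2-fold lower (6.07%). In the library labelled CD95ko 2, 9 were lower (39.3%) and 33 higher, with 18 more than 2-fold higher (24.3%) and 3, Isg15, Ifit2 and Ifit3, more than 2-fold lower (12.3%). With each library centred on its median, the medians against control 2 were 0.17 and 0.38, beside -0.10 and -0.11 for the tested genes. There, 26 and 29 members were higher, and the share of tested genes that were higher was not worked out. These comparisons share libraries and none has a replicate.

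**Figure D2:**
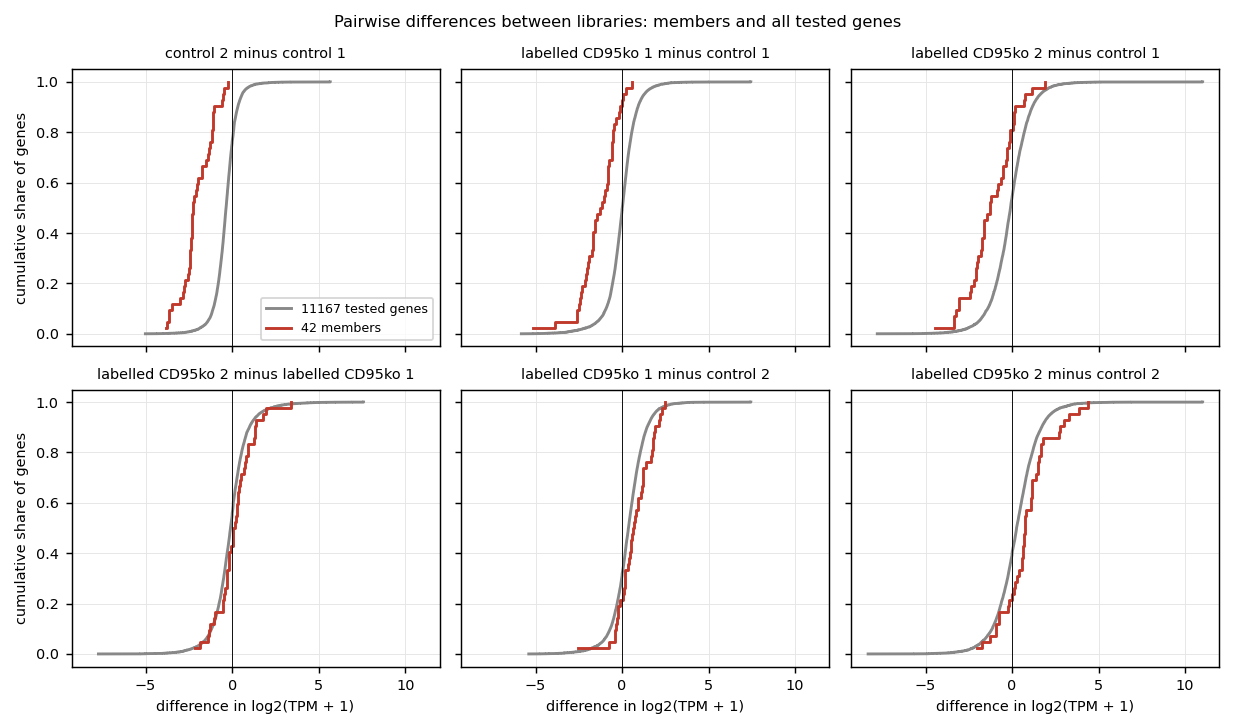
Cumulative share of genes against the difference in log2(TPM + 1) for 6 pairs of libraries, with the 42 members in red and the 11167 tested genes in grey. The red curve lies left of the grey curve in the 3 comparisons with control 1 and, at the median, to its right in the other 3.

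The library labelled CD95ko 1 lay between the controls for 30 of the 42 members, above both for 3 (Isg20, Psme1 and Samd9l) and below both for 9. Among the tested genes 26.8% lay between, 46.3% above both and 27% below both. The library labelled CD95ko 2 lay between the controls for 25 members, against 21.1% of the tested genes, above both for 8 (42.8%) and below both for 9 (36.2%). After median centring each lay between the controls for 23 members. The share of tested genes between the controls was not worked out after centring, so this count has no base beside it. The interval between the controls was wider for members, with a median width of 2.28 against 0.44 for the tested genes. Both libraries labelled CD95ko lay below both controls for 3 members (18.3% of tested genes), which were Isg15, Ifit2 and Tor3a. They lay above both for 3 members (29.2% of tested genes), which were Psme1, Isg20 and Samd9l. After quantile normalization the members below both controls were 7 (25.3% of tested genes), the additions being Ifit3, Oasl1, Mx2 and Gbp3. After median centring they were 8 (28.0% of tested genes), with Trim30a, and Isg20 left the members above both, which were then 2 (23.0%).

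Isg15, a ubiquitin-like protein that is attached to other proteins, was listed at 600.5 TPM in control 1, 212 TPM in control 2, 156 TPM in the library labelled CD95ko 1 and 62.3 TPM in the library labelled CD95ko 2. The groups did not overlap, and both libraries labelled CD95ko lay below control 2 as well as control 1. The group difference was -1.84 ± 0.56 SE (limma unadjusted p = 0.00923, adjusted p = 0.197). Without the library labelled CD95ko 1 it was -2.50 with a limma adjusted p of 0.00245, in a fit in which 1034 of the 11167 tested genes passed, against 6 with all 4 libraries. With each library left out in turn the adjusted p ran up to 0.875, the value without control 2, for Isg15, Ifit3, Psme1 and Lgals3bp alike.

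Usp18, which removes ISG15 from its targets and dampens signalling at the interferon receptor, stood at 93.3, 18.5, 27.9 and 29.1 TPM in control 1, control 2 and the libraries labelled CD95ko 1 and 2. Both libraries labelled CD95ko lay between the controls and close to each other. Trim25, a ligase for ubiquitin and ISG15, stood at 66.8, 15.9, 38.6 and 46.5 TPM in the same order, again between the controls. Uba7, the activating enzyme of ISG15, was at 11.0, 0.83, 6.99 and 26.1 TPM, so the library labelled CD95ko 2 was the highest of the 4. Herc6, a ligase that attaches ISG15 in mouse cells, was lowest there, at 2.45 TPM, against 13.1, 5.59 and 11.4 TPM in the others. The conjugation genes thus ran in opposite directions in that library.

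The IFIT proteins bind viral RNA and block its translation. Ifit1 was listed at 44.8, 8.02, 13.3 and 8.85 TPM in control 1, control 2 and the libraries labelled CD95ko 1 and 2, with both of the latter between the controls. Ifit2 was at 34.4 and 7.55 TPM in the controls and at 5.94 and 2.48 TPM in the libraries labelled CD95ko, with no overlap (difference -1.82 ± 0.75 SE, limma unadjusted p = 0.038, adjusted p = 0.302). Ifit3 was at 58.2, 9.97, 11.1 and 1.70 TPM in the same order, so the library labelled CD95ko 1 exceeded control 2 and the groups overlapped. Its difference was -2.16 ± 0.91 SE (limma unadjusted p = 0.0433, adjusted p = 0.318), and without the library labelled CD95ko 1, in that same fit with 1034 genes called, it was -3.24 with an adjusted p of 0.0246. Of the 25-base stretches of the annotated Ifit3 transcripts (GENCODE M21), 66.1% also occur in Ifit3b, so its value is uncertain. Ifit3b was listed at 30.8, 0.82, 5.96 and 0 TPM. Of the 9 role groups, the IFIT genes had the lowest median difference from control 1 in both libraries labelled CD95ko, -2.29 and -3.35. Against control 2 their medians were 0.14 and -1.30, and control 2 itself had -2.34 against control 1.

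The OAS enzymes make short adenylate chains that activate RNase L, and the OAS-like proteins share their fold. Oas1a was listed at 120.0 TPM in control 1, 16.1 TPM in control 2, 36.9 TPM in the library labelled CD95ko 1 and 43.6 TPM in the library labelled CD95ko 2. Both of the latter lay between the controls. Oas1a shares 72.5% of its 25-base stretches with other genes, mainly Oas1g (46.3, 2.38, 9.11 and 11.7 TPM), and its value is uncertain. Oasl2 showed the same order, at 96.7, 16.3, 32.3 and 53.7 TPM. Oasl1 varied less, at 72.0, 33.5, 38.1 and 28.7 TPM, with the library labelled CD95ko 2 just under control 2. Oas3 was at 22.7, 1.91, 12.5 and 18.6 TPM, and Oas2 at 7.65, 0.67, 0.41 and 2.54 TPM.

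The GTPases encoded by most members of the next group act on membranes around intracellular pathogens. Gbp2, a guanylate-binding protein, stood at 47.9 TPM in control 1, 5.95 TPM in control 2, 33.3 TPM in the library labelled CD95ko 1 and 43.7 TPM in the library labelled CD95ko 2. Its neighbour Gbp3 stood at 46.3, 7.63, 9.82 and 7.70 TPM in the same order. The libraries labelled CD95ko thus lay near control 1 for Gbp2 and near control 2 for Gbp3. The immunity-related GTPases Igtp (59.1, 11.0, 26.1 and 18.5 TPM) and Irgm1 (90.3, 16.2, 43.5 and 37.9 TPM) lay between the controls in both libraries labelled CD95ko. Ifi47 was at 31.0, 1.58, 8.59 and 23.9 TPM, and Mx2, a gene of the dynamin-like Mx family that RefSeq annotates as a transcribed pseudogene, at 26.0, 4.94, 5.30 and 4.16 TPM. Iigp1 was weak, at 9.37, 0.89 and 1.62 TPM, and was listed at 0 in the library labelled CD95ko 2. All 7 genes of the group were more than 2-fold lower in control 2 than in control 1.

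Among the effectors at membranes and on nucleic acids, Ifitm3, which blocks the fusion of viruses in endosomes, was among the most abundant members, at 658, 436, 444 and 727 TPM in control 1, control 2 and the libraries labelled CD95ko 1 and 2. The library labelled CD95ko 1 lay close to control 2, and the library labelled CD95ko 2 above control 1. Bst2, or tetherin, which holds budding virions at the cell surface, was at 415, 156, 237 and 266 TPM, between the controls in both. Isg20, an exonuclease, was the member that differed least between the controls (181 and 153.5 TPM). It stood at 215 and 189 TPM in the libraries labelled CD95ko, above both controls by 0.06 on the log2 scale at the nearest, and no test called it. Rsad2, or viperin, which makes a chain-terminating nucleotide, was among the members furthest apart between the controls (58.8 and 3.77 TPM) and stood at 9.93 and 13.0 TPM in the libraries labelled CD95ko. Cmpk2, the nucleotide kinase gene next to it, had the largest difference between the controls, -3.84, at 25.1 and 0.82 TPM, with 5.45 and 2.07 TPM in the libraries labelled CD95ko. Rtp4, a chaperone for membrane receptors, was at 149, 29.8, 23.3 and 44.2 TPM, and Samd9l, a restriction factor acting on translation, at 10.5, 4.58, 11.0 and 11.5 TPM.

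PARP9 and its partner DTX3L, with PARP12 and PARP14, attach ADP-ribose or ubiquitin to other proteins. Parp9 was listed at 45.6 TPM in control 1, 9.75 TPM in control 2, 35.7 TPM in the library labelled CD95ko 1 and 36.9 TPM in the library labelled CD95ko 2. Parp12 stood at 41.0, 11.3, 40.1 and 37.8 TPM in the same libraries. For both genes the libraries labelled CD95ko lay just under control 1. Parp14 did not follow them and lay nearer control 2, at 43.4, 7.73, 13.8 and 12.0 TPM, although it lies beside Parp9 and Dtx3l on chromosome 16. Dtx3l was at 25.5, 4.29, 17.4 and 13.8 TPM.

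Sp100 and Daxx are proteins of the PML nuclear bodies. Daxx was listed at 53.3, 21.6, 37.5 and 47.9 TPM in control 1, control 2 and the libraries labelled CD95ko 1 and 2. Sp100 was at 12.5 TPM in control 1, listed at 0 in control 2, and at 4.50 and 20.4 TPM in the libraries labelled CD95ko, the second being the highest of the 4. Xaf1, an antagonist of the caspase inhibitor XIAP, went the other way, at 59.5, 22.9, 32.7 and 13.1 TPM, lowest in the library labelled CD95ko 2. Trim30a was at 4.71 and 0.69 TPM in the controls, listed at 0 in the library labelled CD95ko 1 and at 0.87 TPM in the library labelled CD95ko 2.

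Psme1 and Psme2 encode the alpha and beta subunits of the interferon-inducible proteasome activator, which favours the production of peptides for presentation. Psme1 stood at 169 TPM in control 1, 78.4 TPM in control 2, 251 TPM in the library labelled CD95ko 1 and 635 TPM in the library labelled CD95ko 2. The groups did not overlap, and it was the only member with an unadjusted p under 0.05 that was higher (difference 1.78 ± 0.50 SE, limma unadjusted p = 0.00628, adjusted p = 0.177). Without the library labelled CD95ko 1, in the fit that called 1034 of the 11167 genes, the difference was 2.45 with a limma adjusted p of 0.00118. Psme2 was at 508, 371, 344 and 838 TPM, with the library labelled CD95ko 1 below both controls and the library labelled CD95ko 2 above both. Of its 25-base stretches, 35.4% are shared with Psme2b, listed at 42.5, 12.4, 26.5 and 13.8 TPM.

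Of the remaining members, Ifi27, a small hydrophobic protein, varied little, at 583, 409.5, 531 and 638 TPM in control 1, control 2 and the libraries labelled CD95ko 1 and 2. Ifi35 was at 135, 58.8, 67.2 and 93.6 TPM, between the controls in both libraries labelled CD95ko. Tor3a, a torsin of the endoplasmic reticulum, was at 102 and 44.0 TPM in the controls and at 36.7 and 25.2 TPM in the libraries labelled CD95ko, with no overlap (difference -1.11 ± 0.47 SE, limma unadjusted p = 0.0429, adjusted p = 0.317). Ifi44 was at 45.4 TPM in control 1 and between 2.18 and 4.56 TPM in the other 3 libraries. Lgals3bp, a secreted glycoprotein, was at 86.2, 13.6, 1.49 and 24.9 TPM. Without the library labelled CD95ko 2, in a fit that called 194 of the 11167 genes, its difference was -3.84 with a limma adjusted p of 0.0169, and with all 4 libraries it was -2.15 ± 1.11 SE (limma adjusted p = 0.4).

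The 2 libraries labelled CD95ko differed from each other in both directions. The median member was 0.11 higher in the library labelled CD95ko 2, beside -0.10 for the tested genes. Of the 42 members, 7 were more than 2-fold higher there (9.9% of tested genes), which were Lgals3bp, Sp100, Uba7, Ifi47, Psme1, Oas2 and Psme2. More than 2-fold lower were 6 members (13.4% of tested genes), which were Ifit3, Herc6, Iigp1, Isg15, Xaf1 and Cmpk2. The median absolute difference was 0.53 for members and 0.52 for tested genes. By this measure alone, the members differed between these libraries about as much as other genes did.

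**Figure D3:**
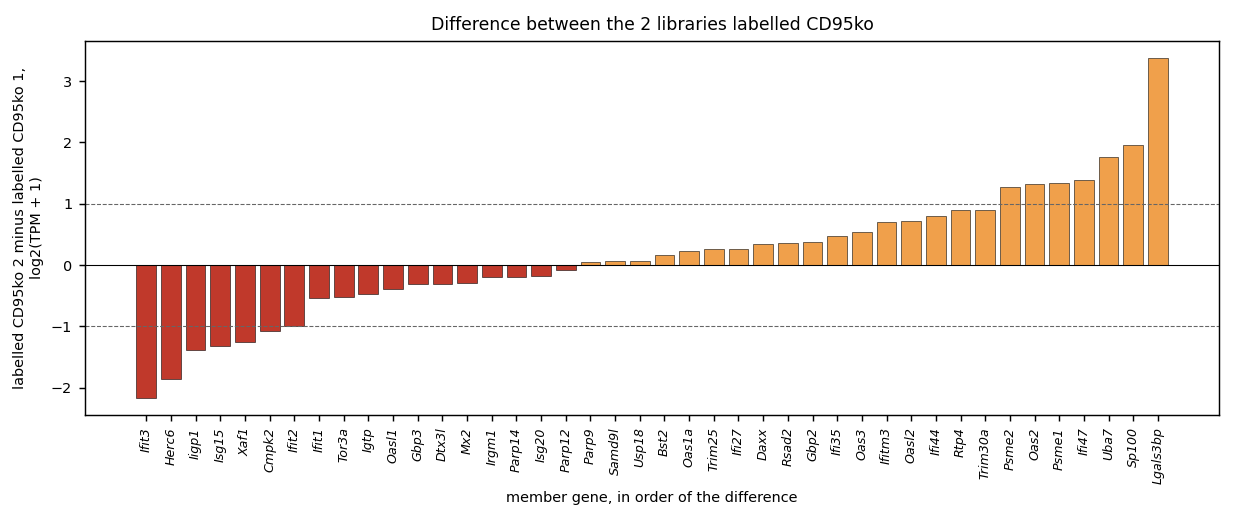
Difference in log2(TPM + 1) between the 2 libraries labelled CD95ko for each member, sorted, with dashed lines at a 2-fold difference. Bars run from -2.16 for Ifit3 to 3.38 for Lgals3bp, with 18 members lower (55.1% of tested genes) and 24 higher in the library labelled CD95ko 2.

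Other genes of the pathway were read from lists of ligands, receptors, transcription factors, negative regulators, sensors and MHC class I genes. Of 21 interferon genes, 20 were listed at 0 in every library, Ifna1 among them. The exception was Ifnb1, encoding interferon beta, at 3.67 TPM in control 1 and listed at 0 in the other 3 libraries. Since depth is unknown, a value this low cannot be separated from a few reads.

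None of the 9 receptor and kinase genes was more than 2-fold lower in control 2 than in control 1 (12.6% of tested genes). Their median difference was -0.18, beside -0.35 for the tested genes. The receptor chain Ifnar2 stood at 77.4, 68.1, 54.8 and 89.5 TPM in control 1, control 2 and the libraries labelled CD95ko 1 and 2, and Ifngr2 at 49.2, 53.9, 32.9 and 41.0 TPM. Against the controls, 0 of the 9 passed the adjusted p in limma. The kinases Jak2 (23.4, 12.7, 40.9 and 72.4 TPM) and Tyk2 (10.3, 6.70, 26.2 and 31.1 TPM) were higher at an unadjusted p under 0.05, as were 9.25% of the tested genes. For both, the groups did not overlap, with the libraries labelled CD95ko above both controls, as for 29.2% of the tested genes.

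Of 10 STAT and IRF transcription factors, 6 were more than 2-fold lower in control 2 than in control 1 (12.6% of tested genes), and the median difference was -1.19. Irf9, the DNA-binding subunit of the ISRE complex, was at 92.5, 35.3, 50.9 and 47.3 TPM in control 1, control 2 and the libraries labelled CD95ko 1 and 2. Irf1, a factor induced mainly by interferon gamma, was at 259, 84.8, 101 and 253 TPM, so the library labelled CD95ko 2 was close to control 1. Irf7, a factor that amplifies interferon production, was chosen after its values had been seen, at 89.0, 10.8, 25.7 and 36.8 TPM, with both libraries labelled CD95ko between the controls. None of the 10 passed the limma test at an adjusted or unadjusted p of 0.05.

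The 8 negative regulators were all lower in control 2 than in control 1 (75.9% of tested genes), with 2 more than 2-fold lower (12.6%), and Ptpn6 was higher in the libraries labelled CD95ko at an unadjusted p under 0.05 (9.25% of tested genes). Irf2bp2 was at 68.8, 58.9, 74.2 and 102 TPM, and the phosphatase gene Ptpn11 at 97.1, 59.0, 79.7 and 55.4 TPM. Of the 14 nucleic acid sensors and adaptors, all were below control 1 in control 2 (75.9% of tested genes), 7 of them more than 2-fold (12.6%). Eif2ak2, which encodes the RNA-activated kinase PKR, was at 71.3, 21.2, 35.7 and 33.2 TPM, and Samhd1, a nucleotide hydrolase, at 57.8, 35.7, 48.5 and 60.3 TPM. Mb21d1, encoding the DNA sensor cGAS (15.9, 11.7, 4.15 and 2.40 TPM), was lower in the libraries labelled CD95ko at an unadjusted p under 0.05 (5.68% of tested genes), and no sensor passed the adjusted p in limma.

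For the MHC class I pathway, all 10 genes had less in control 2 than in control 1 (75.9% of tested genes), and 7 were more than 2-fold lower (12.6%). In the library labelled CD95ko 2, 9 of the 10 were more than 2-fold higher than in the library labelled CD95ko 1, where 9.9% of the tested genes were, and the median difference was 1.35. H2-D1, a class I heavy chain, was at 801, 486, 436 and 891 TPM. B2m, the light chain that pairs with it, was the exception, at 787, 507, 342 and 324 TPM, with both libraries labelled CD95ko below both controls (limma unadjusted p = 0.0159, adjusted p = 0.236). The leukocyte list also had a higher sum in the library labelled CD95ko 2 (253 against 53.0 TPM), from Cd14 and Cd68. Csf1r went the other way, at 22.2 TPM in the library labelled CD95ko 1 and 5.07 TPM in the library labelled CD95ko 2. Ptprc, the pan-leukocyte marker, was listed at 0 in both.

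**Figure D4:**
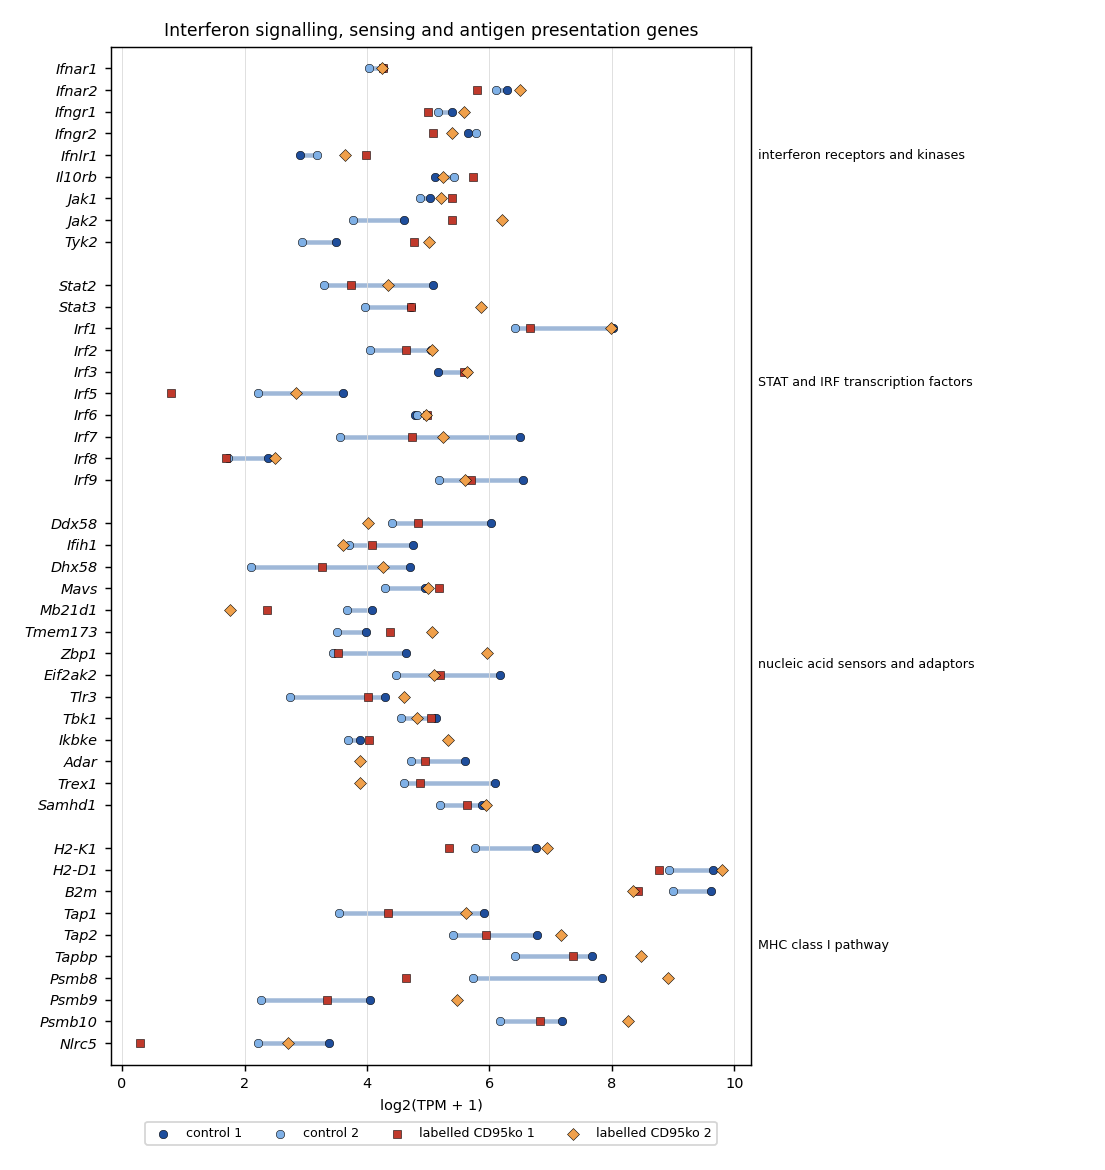
Levels of the receptor, transcription factor, sensor and MHC class I genes on a log2(TPM + 1) axis, with a symbol for each library and a bar joining the controls. The receptor rows have short bars, while Irf7, Dhx58 and Tap1 have long ones, and 9 of the 10 MHC class I genes have the library labelled CD95ko 2 to the right of the library labelled CD95ko 1.

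The genes outside the list whose pattern over the 4 libraries lay closest to the median member were found by Euclidean distance between centred log2(TPM + 1) values. The 5 closest were Eif2ak2 (distance 0.30), Ddx60 (0.30), Rab32 (0.32), Tmem140 (0.33) and Klhl15 (0.37). Ddx60, a helicase, was at 11.5, 2.35, 3.86 and 5.92 TPM, and Tmem140 at 42.4, 8.71, 14.9 and 21.4 TPM in control 1, control 2 and the libraries labelled CD95ko 1 and 2. Rab32, a small GTPase, was at 17.9, 5.24, 7.90 and 9.91 TPM. Klhl15 was near the floor, at 3.46, 0, 0.68 and 1.42 TPM in the same order. With 4 libraries the likeness is a description only.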

How the data were processed

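RNA for 4 libraries was enriched on oligo(dT) beads, fragmented, reverse transcribed with a template-switching method, amplified by PCR and sequenced, per the labels' protocols. The authors deposited TPM values per gene symbol, 1 table a library. STAR 2.6.0, RSEM 1.3.0 and the build mm10 are named in the submitters' processing notes, and the annotation is not given in the sources used here. TPM keeps no read number, so depth and counting error are unknown.

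The 11167 genes that reached a TPM of 1 in 2 or more libraries were put on the log2(TPM + 1) scale. Changes of weak genes come out too small on it. The groups, taken from the sample titles, entered a two-sided limma fit (version 3.58.1, R 4.3.3) with lmFit and with eBayes following the variance trend. P-values were adjusted by Benjamini-Hochberg over all tested genes. An exact permutation test of 2 against 2 libraries cannot give a two-sided p under 0.333. Comparisons of single libraries have no test. The fit was tested on simulated data for this comparison over 11167 genes: of 200 genes changed by 1, 2 or 3 on the log2 scale, it recovered 0.5%, 46% and 86%, and 3 of 4, 8 of 100 and 15 of 187 calls were false.

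The members, roles and lists were chosen with earlier results of these data known. Values in every library are given for the 3 highest members of each role, those past an unadjusted p of 0.05, those least and most changed between the controls, and those whose groups did not overlap, and for the 2 highest genes of each pathway list. Values of the remaining members, and of Jak2, Tyk2, Irf7 and Mb21d1, were added after they had been seen. Some genes of the lists are not reported here and were left out of the lists' counts. Genome positions and promoter windows are RefSeq's (GRCm38.p6), and shared 25-base stretches came from GENCODE M21. Beyond Oas1a, Ifit3 and Psme2, the largest shares of such stretches were 25.4% for Ifitm3, 17.7% for Igtp and 17.2% for Isg15. Their values are uncertain to that extent. The alternatives were another pseudocount (0.1), other filters, quantile normalization, median centring, other eBayes settings, the replicate number as a block, leaving out each library, and a looser motif.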

Additional observations from a re-analysis of the deposited data

How the results depend on the processing

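With all 4 libraries, 0 members passed an adjusted p of 0.05 in limma under each setting tried (smallest member adjusted p from 0.129 to 0.327, and 2 to 5 members at an unadjusted p under 0.05). With 1 library left out, where the lone library is taken to vary like the other group, the number was 0 to 3. The 3 were Isg15, Ifit3 and Psme1, without the library labelled CD95ko 1, in the fit in which 1034 of all 11167 genes passed. The number of all genes past the threshold, 6 as reported, was 0 with a pseudocount of 0.1, no filter, quantile normalization, median centring or no variance trend (1553, 1636, 1862, 1848 and 1531 at an unadjusted p under 0.05). It was 55 with a mean TPM of at least 5, 52 with robust eBayes, and 0 to 1034 with 1 library left out. The cause was not tested. The replicate numbers count different lines or clones and do not pair the libraries (deviations of same-numbered libraries correlated at -0.081 across genes), and with them as a block 2 genes passed and 0 members.

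The median member difference between the groups was -1.17 to 0.57 with 1 library left out, positive without control 1 and negative in the other 3 cases. Between the controls it was -2.40 with a pseudocount of 0.1, -1.85 after quantile normalization and -1.85 after median centring. For the library labelled CD95ko 1 against control 1 it was -1.04 among members with a mean TPM of at least 5. Against control 2, the library labelled CD95ko 1 had 0.76 with a pseudocount of 0.1, 0.76 with the mean TPM filter, 0.37 after quantile normalization and 0.17 after median centring. The library labelled CD95ko 2 had 0.55 and 0.38 after quantile normalization and median centring. The difference of Fas was -1.42 to 0.16 with 1 library left out. The looser core, GAAA and any 2 bases before GAA, occurred in 17 member promoters (51.5%) and in 2638 of all genes (9.76%).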
